A study of Mus musculus with 5 samples.

Results

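The 10 heat-shock chaperone genes described here are Hspa1a, Hspa1b, Hsp90aa1, Hsp90ab1, Hspa8, Hspd1, Hspe1, Hsph1, Dnajb1 and Dnaja1, taken by symbol from the 33696 genes of each matrix, and each of the 10 had 1 row. The cells were mononuclear cells from the blood of C57BL/6N mice, frozen and thawed before 10x Genomics 3′ droplet capture. Mice on regular chow gave 2 libraries, called chow 1 and chow 2. A second pair, HFD + L-NAME 1 and 2, came from mice given high-fat food and the nitric oxide synthase inhibitor L-NAME over 15 weeks, a regimen used to model heart failure in which the ejection fraction is preserved. The remaining library, NO2-OA, came from mice under that same 15-week regimen to which the nitrated fatty acid NO2-OA (nitro-oleic acid) was added in its final 4 weeks. The labels do not say whether a library is 1 animal or a pool, so every p-value below measures the spread between libraries only.

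Chaperones bind proteins that are not folded and use ATP to help them fold or to keep them from clumping. Heat and other insults to proteins free heat-shock factor 1 (HSF1) from chaperones, and HSF1 then drives transcription of the inducible members within minutes. Hspa1a and Hspa1b encode the inducible cytosolic HSP70, Hspa8 the constitutive one, and Hsph1 an HSP110 that exchanges nucleotide on HSP70. Dnajb1 and Dnaja1 are HSP40 co-chaperones that hand clients to HSP70, Hsp90aa1 and Hsp90ab1 are the inducible and the more constitutive cytosolic HSP90, and Hspd1 and Hspe1 form the mitochondrial HSP60 chaperonin and its HSP10 lid.

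The libraries held from 71216133 to 122022000 unique molecular identifiers (UMIs, each standing for 1 captured transcript) in 8488 to 17997 barcodes, and 7165 to 14771 cells were kept. Any pair of libraries shared from 28 to 77 barcodes. Cells were grouped with the 10 genes and the lists named below left out of the clustering, and clusters were named from markers; 2.45% to 8.81% of kept cells stayed unnamed. B-like, T-like (CD4 and CD8 together), regulatory T-like, classical and non-classical monocyte-like and platelet-like cells had at least 50 cells in every library and were tested. B-like cells had a summed level of 9235 to 11760 CPM (UMIs per 1000000 UMIs of that class and library) for 8 B markers, and their summed erythroid markers ran from 69.5 in chow 2 and 120 in chow 1 to 302 and 469 in HFD + L-NAME 1 and 2 and 635 in NO2-OA. Their summed platelet markers ran from 575 in chow 1 to 39.5 in NO2-OA. Erythroid markers were far higher in monocyte-like cells of NO2-OA, as given with that comparison. The part of these transcripts of other cells in the results was not tested.

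The chaperones were far apart in the 2 control libraries, with chow 1 the highest and chow 2 the lowest of the 5 libraries, and this gap was larger than that between the 2 HFD + L-NAME libraries. Over all kept cells the 10 genes together held 1.54% of UMIs in chow 1 and 0.21% in chow 2, against 1.00% and 0.774% in HFD + L-NAME 1 and 2 and 0.588% in NO2-OA. In B-like cells the figures were 1.98%, 0.177%, 1.23%, 0.947% and 0.616% in the same order. Chow 1 was the highest library for 52 of the 60 gene and class pairs of the tested classes, and chow 2 the lowest for 57. All exceptions were in platelet-like cells. The share of all gene and class pairs with chow 1 highest or chow 2 lowest was not counted. Both HFD + L-NAME libraries lay between the chow libraries in 53 of the 60 pairs, so the groups overlapped there; 12.5% of all 73678 gene and class pairs tested had that order.

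**Figure D1:**
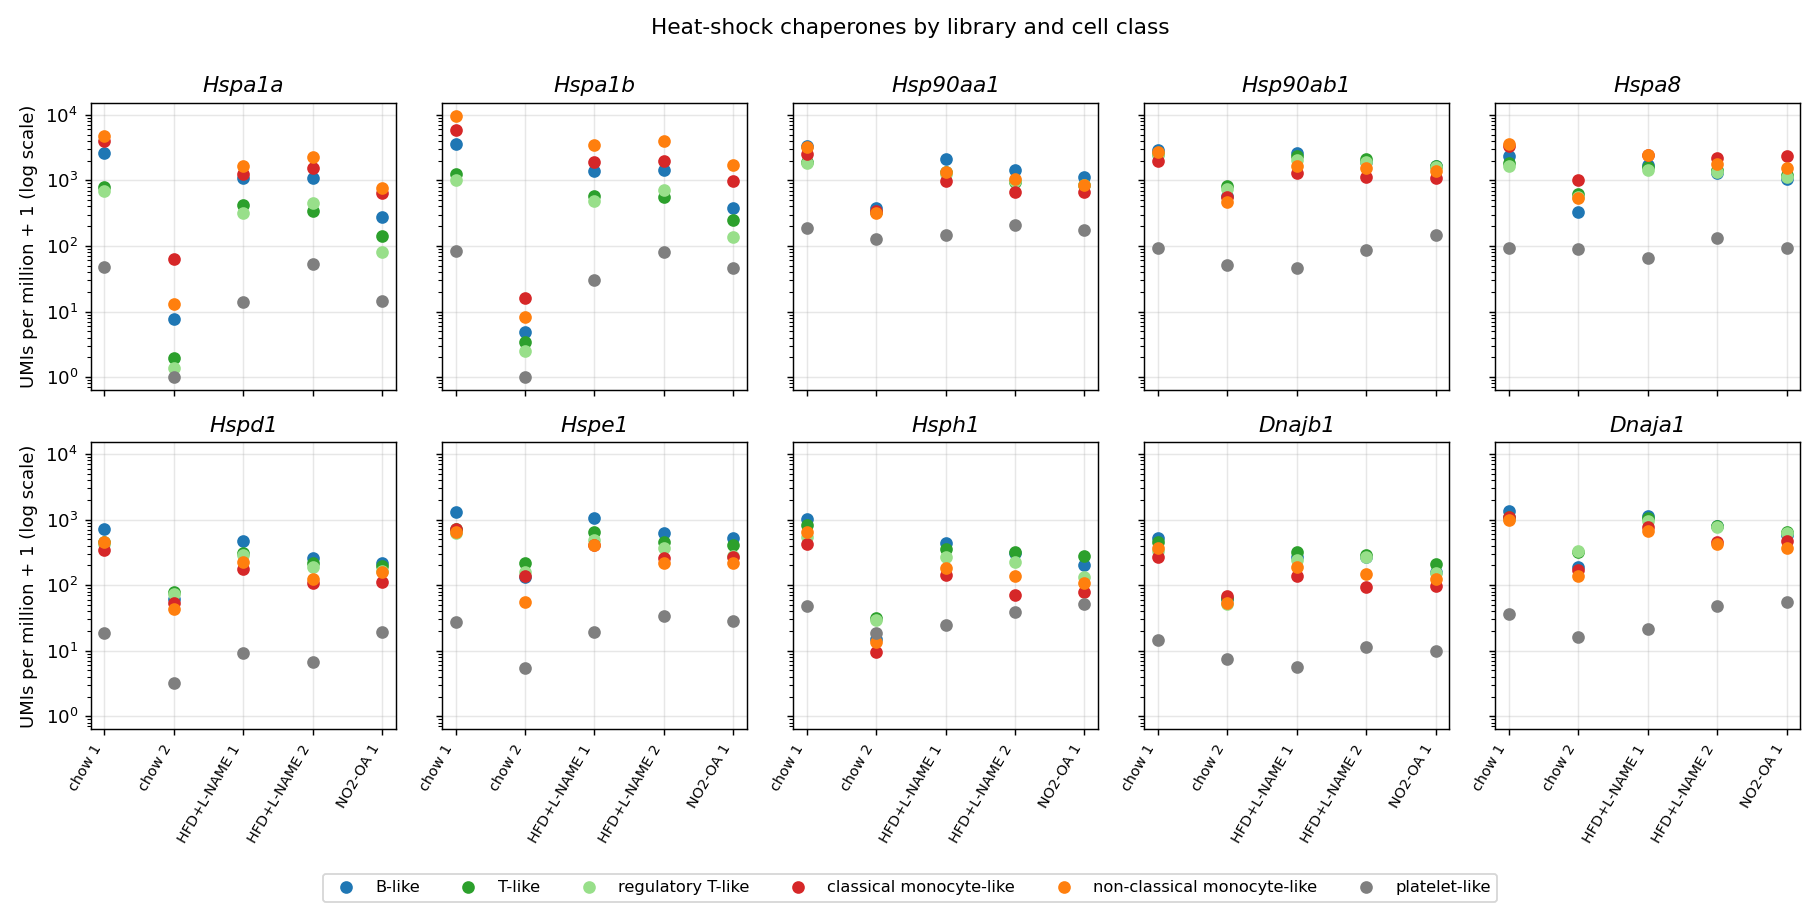
CPM plus 1 (vertical axis, log scale) of each of the 10 genes in the 5 libraries (horizontal axis), 1 point per cell class. Chow 2 lies lowest and chow 1 highest in the 5 nucleated classes, most widely apart for Hspa1a and Hspa1b (2575 against 6.67 CPM of Hspa1a in B-like cells), and platelet-like cells lie below the other classes in 49 of 50 gene and library pairs.

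The inducible HSP70 genes showed the widest range. In B-like cells Hspa1a had 2575 CPM in chow 1 and 6.67 in chow 2, then 1071 and 1102 in HFD + L-NAME 1 and 2, and 277 in NO2-OA. Hspa1b had 3557 and 3.94 in chow 1 and 2, 1401 and 1453 in HFD + L-NAME 1 and 2, and 378 in NO2-OA. The HFD + L-NAME libraries were thus close to each other, and the controls stood on either side of them. Counted UMIs of Hspa1a were 81499 in chow 1 and 188 in chow 2, a 386-fold ratio (95% interval 334 to 448, exact conditional binomial, covering counting error only, as do all intervals here).

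Monocytes carried the most inducible HSP70. In non-classical monocyte-like cells, which patrol the vessel wall, Hspa1b reached 9545 CPM in chow 1 against 7.18 in chow 2, with 3505 and 3954 in HFD + L-NAME 1 and 2 and 1737 in NO2-OA. Classical monocyte-like cells, the precursors recruited to inflamed tissue, had 5904 and 15.1 in the controls, 1875 and 1945 on HFD + L-NAME, and 992 with NO2-OA. T-like cells had 1258 and 2.45, then 586 and 548, then 252, so their levels were below those of monocytes in every library. Hspa1a and Hspa1b had the order non-classical, then classical monocyte-like, then B-like, then T-like cells in chow 1, in both HFD + L-NAME libraries and in NO2-OA; in chow 2 classical monocyte-like cells led, with 63.2 CPM of Hspa1a. The paralogs are nearly identical in sequence, so the split of UMIs between them is uncertain.

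The sequence before the start site of the HSP70 genes is shown because these members had the widest range and because it holds the unit that HSF1 is known to bind, the heat-shock element of inverted GAA repeats. RefSeq promoter windows of 300 bases (250 before to 50 after the start, build GRCm38.p6) existed for 7 of the 10 members; the counts themselves were made on mm39, so these coordinates belong to the promoter table only. The windows of Hspa1a and Hspa1b were identical at 296 of 300 positions. They hold, at the same place, 1 pair of units in the form GAANNTTC, in capitals below, starting 104 bases before the start site, and the 100 bases printed are the same in both genes (Hspa1a chr17:34972207-34972306, Hspa1b chr17:34959289-34959388, minus strand of GRCm38.p6).
Hspa1a and Hspa1b: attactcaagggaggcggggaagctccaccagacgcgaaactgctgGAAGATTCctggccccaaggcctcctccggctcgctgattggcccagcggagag
The forms GAANNTTC or TTCNNGAA, which read the same on the other strand, were in 15.1% of all 32851 promoter windows. The forms with 3 units, GAANNTTCNNGAA or its reverse complement TTCNNGAANNTTC, were in 0.603%. Such a run of units was found in the windows of Hspd1, Hspe1 and Hsph1, shown here with the matched bases in capitals. Hspe1 and 1 of the annotated starts of Hspd1 lie 216 bases apart and point away from each other. The same bases, read on opposite strands, start 144 bases before that Hspd1 start and 89 before that of Hspe1, and that of Hsph1 starts 36 bases past the first of its listed start sites.
Hspe1, chr1:55088053-55088082, plus strand: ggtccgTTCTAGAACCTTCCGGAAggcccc
Hspd1, chr1:55088053-55088082, minus strand: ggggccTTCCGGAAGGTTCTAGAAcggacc
Hsph1, chr5:149636287-149636316, minus strand: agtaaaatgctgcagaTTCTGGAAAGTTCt
Dnaja1 held 1 pair of units 124 bases before a start site and Dnajb1 none in its windows. A match describes these letters only and shows neither binding nor a cause of the levels.

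Hsph1 had the largest gap between the controls after the HSP70 pair. B-like cells had 1027 CPM in chow 1, 14.2 in chow 2, then 432 and 311 in HFD + L-NAME 1 and 2, and 200 in NO2-OA, a 72.1-fold ratio between the chow libraries (interval 65.4 to 79.8). In T-like cells its levels were 834, 30.7, 356, 319 and 274 in the same order. Dnajb1, the HSP40 that stimulates HSP70, had 522 and 60.1 in chow B-like cells, 270 in each HFD + L-NAME library and 158 in NO2-OA. Dnaja1 had 1354 and 188 in chow, 1135 and 809 under the regimen, and 574 in NO2-OA. The 2 HSP40 genes thus had a narrower range than Hsph1, with chow ratios of 8.70 and 7.19 in B-like cells.

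Hspa8 and the HSP90 genes had the same order of libraries in B-like cells. Hspa8, the HSP70 present in unstressed cells, had 2379 CPM in chow 1 and 334 in chow 2 in B-like cells, then 1728 and 1285 in HFD + L-NAME 1 and 2, and 1047 in NO2-OA. It was highest in monocytes: classical monocyte-like cells had 3338 and 1010 in the controls, 2454 and 2206 on HFD + L-NAME, and 2330 with NO2-OA, so NO2-OA lay between the HFD + L-NAME libraries there. Hsp90aa1 ran in B-like cells from 3366 in chow 1 to 382 in chow 2, with 2142 and 1421 in HFD + L-NAME 1 and 2 and 1142 in NO2-OA. Hsp90ab1, the more constitutive HSP90, had 2951, 584.5, 2612, 1940 and 1644 in that order and the smallest chow ratio of the 10 genes in B-like cells, 5.05-fold (interval 4.97 to 5.13).

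The mitochondrial chaperonin pair followed the cytosolic genes. Hspd1 had 709 CPM in chow 1, 60.2 in chow 2, then 478 and 255 in HFD + L-NAME 1 and 2 and 217 in NO2-OA in B-like cells. Hspe1, which shares the stretch printed above, had 1320, 133, 1042, 618 and 526. Hspd1 had higher levels in B-like cells than in either monocyte class in all 5 libraries, the reverse of the HSP70 pair. Hspe1 did so in all but chow 2, with 133 in B-like and 139 in classical monocyte-like cells there.

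Across the 5 tested classes other than platelet-like cells, the log2 ratio of chow 1 to chow 2 ran from 1.55 (Hspa8 in regulatory T-like cells, 1646 against 561 CPM) to 10.83 (Hspa1a in the same class, 1853 counted UMIs against 1, interval 8.35 to 16.13), with a median of 2.84 over 50 pairs. In all 50 the counting interval lay above a ratio of 1. The HFD + L-NAME libraries, taken in the same way, had log2 ratios of −0.61 to 1.05 with a median of 0.36. Their counting interval excluded a ratio of 1 in 47 of the 50 pairs as well. The gap between the controls was the larger one in 50 of 50 pairs. The share of all gene and class pairs with the larger gap in the controls was not counted. On the log2(CPM + 1) scale, on which all genes were counted, the members were at least 2-fold higher in chow 1 than in chow 2 in 56 of 60 pairs, platelet-like cells included, against 3.94% of all gene and class pairs; the median gene had a log2 ratio of 0.01 in B-like and 0.06 in T-like cells. With 1 library on each side this difference has no replicate check. In platelet-like cells the median gene was itself at −0.62, and there the members' log2 ratios ran from 0.06 to 3.01 for the 8 genes with a UMI in chow 2. Platelet-like Hspa1a and Hspa1b had 212 and 367 UMIs in chow 1 and 0 in chow 2, which puts chow 1 at least 7.20- and 12.5-fold higher against a floor of 3 UMIs per library.

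**Figure D2:**
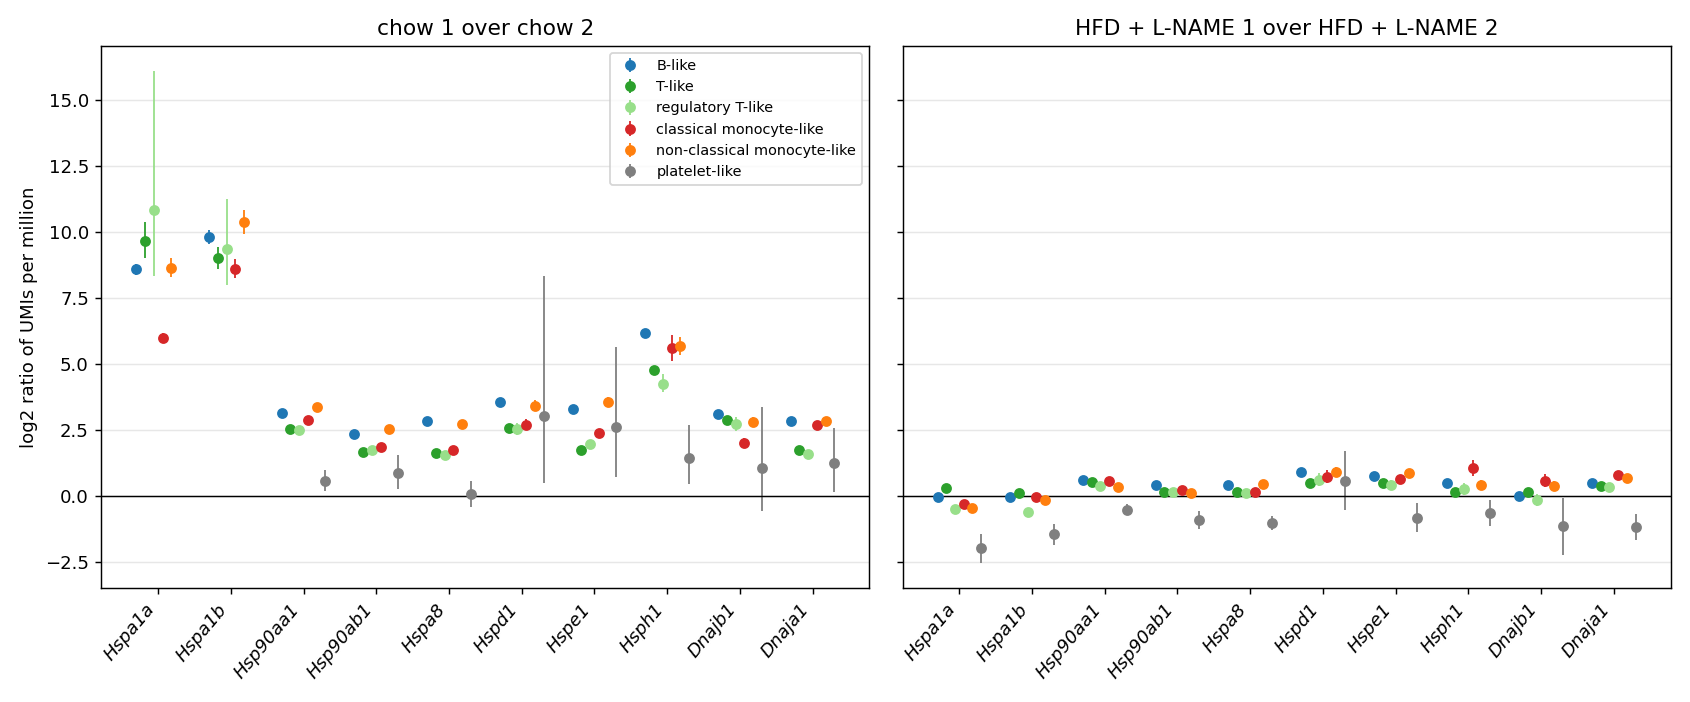
Log2 ratio of CPM (vertical axis) between the 2 chow libraries (left) and between the 2 HFD + L-NAME libraries (right) for each gene, 1 point per class with its 95% counting interval. The chow ratios of the 5 nucleated classes lie between 1.55 and 10.83 and the HFD + L-NAME ratios between −0.61 and 1.05; platelet-like Hspa1a and Hspa1b have no chow point because chow 2 had 0 UMIs.

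Cell quality and depth were read beside this gap. The median mitochondrial share of UMIs in kept cells was 4.23% in chow 1 and 3.63% in chow 2, and the median depth 5641 and 6420 UMIs. In B-like cells those medians were 4.14% and 3.80%, and 5165 and 5549 UMIs. With a mitochondrial share below 5% the median log2 chow ratio of the 10 genes in B-like cells was 3.23, against 3.22 as reported. The part of depth in the gap was not tested.

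Setting HFD + L-NAME against chow asks how the regimen changed the chaperones in blood cells. None of the 60 gene and class pairs passed edgeR's quasi-likelihood test, against 0.00407% of all gene and class pairs (3 of 73697), 0 had an unadjusted p under 0.05, and the lowest adjusted p was 0.9997. At an unadjusted p under 0.05, 1686 gene and class pairs of all genes were found. DESeq2 called 0 members as well. The log2 fold change in B-like cells was −0.24 ± 2.72 (SE, n = 2 and 2) for Hspa1a, −0.47 ± 2.19 for Hsph1, −0.05 ± 1.02 for Hsp90aa1, 0.17 ± 0.88 for Hspa8 and 0.38 ± 0.70 for Hsp90ab1. Standard errors over the 60 pairs ran from 0.39 to 3.22 log2 units, so these data do not limit the change to a narrow range in either direction.

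Which control was used set the direction. The file names carry 2 prefixes that coincide with the replicate number, chow 1, HFD + L-NAME 1 and NO2-OA in the first set and chow 2 and HFD + L-NAME 2 in the second, and what the sets are is not stated. Within the first set all 60 pairs were lower in HFD + L-NAME than in chow, and within the second all 60 were higher. The share of all gene and class pairs with these directions was not counted. In the 53 pairs with both HFD + L-NAME libraries between the controls, these directions follow from that order. B-like Hspa1a was 1071 against 2575 CPM in the first set and 1102 against 6.67 in the second. Over the 5 nucleated classes the median log2 ratio was −0.66 in the first set (range −1.79 to −0.05) and 1.73 in the second (0.47 to 10.24).

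Leaving out 1 control gave opposite directions as well. Without chow 1, all 60 fold changes were above 0 and 36 pairs passed the test as higher, against 0.363% of all gene and class pairs. They included 9 of 10 members in B-like, 10 in regulatory T-like, 8 in non-classical and 4 in classical monocyte-like cells; B-like Hspa8 had a log2 fold change of 2.15 ± 0.33 and Hsp90aa1 of 2.20 ± 0.35. Without chow 2, all 60 were below 0 and 14 passed as lower, against 0.229%. Of these, 7 were in non-classical monocyte-like cells (Hsph1 −2.02 ± 0.22, Hspa1a −1.33 ± 0.23, Hsp90aa1 −1.5 ± 0.23), 5 in regulatory T-like cells, and 1 each in B-like (Hsph1, −1.45 ± 0.27) and classical monocyte-like cells (Hspa1b, −1.60 ± 0.21). In each of these fits chow is 1 library and NO2-OA is 1 library. The spread thus rests on the 1 pair of HFD + L-NAME libraries, and chow is assumed to vary like that pair.

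The comparison of NO2-OA with HFD + L-NAME asks what the fatty acid changed on top of the regimen. The single NO2-OA library was below both HFD + L-NAME libraries in 42 of 60 pairs, where 29% of all gene and class pairs had that order. All 10 members showed it in B-like, T-like and regulatory T-like cells, 9 in non-classical monocyte-like cells, 3 in classical monocyte-like cells and 0 in platelet-like cells. NO2-OA was above chow 2 in all 60 pairs, and the share of all gene and class pairs with that order was not counted.

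In the fit over 5 libraries, 0 of 60 pairs passed edgeR, against 0.0149% of all gene and class pairs (11 of 73697), 0 had an unadjusted p under 0.05, and the lowest adjusted p was 0.820. For all genes 1590 pairs had an unadjusted p under 0.05, and DESeq2 called 0 members. B-like Hspa1a had a log2 fold change of −1.98 ± 3.68 (SE, 1 library against 2) and regulatory T-like Hspa1a of −2.31 ± 3.78. The chow libraries take part in this fit through the shared estimate of the spread. With the chow libraries left out, an alternative added after the data were seen, the fold changes hardly moved (B-like Hspa1a −1.97 ± 0.29) and 7 pairs passed as lower, against 0.146% of all gene and class pairs.

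Those 7 were Hspa1a and Hspa1b in B-like, non-classical monocyte-like and regulatory T-like cells and Hsph1 in the last of these. B-like Hspa1b had −1.91 ± 0.30 with an adjusted p of 0.0163 from edgeR (B-like Hspa1a 0.0130). Over all alternatives the adjusted p of B-like Hspa1a ran from 0.00684 to 1.00. Non-classical monocyte-like Hspa1a had −1.36 ± 0.26, regulatory T-like Hspa1a −2.32 ± 0.25 and regulatory T-like Hsph1 −0.95 ± 0.24. T-like Hspa1a had −1.48 ± 0.24 and classical monocyte-like Hspa1a −1.11 ± 0.24, with adjusted p of 0.280 and 0.247, and did not pass. Whether the classes differ was not tested. Summed erythroid markers in non-classical monocyte-like cells were 17930 CPM in NO2-OA against 3493 and 9026 in HFD + L-NAME 1 and 2, with 91.1 and 43.6 in chow 1 and 2. In classical monocyte-like cells they were 6564 in NO2-OA against 166 and 290, and in regulatory T-like cells 1728 against 301 and 370. The part of these in the differences was not tested. The spread in this fit rests on 1 pair of libraries. Leaving out chow 1 alone gave 6 calls, chow 2 alone 7, HFD + L-NAME 1 alone 1 and HFD + L-NAME 2 alone 0. The 2 HFD + L-NAME libraries come from different file-name sets, described above. Within the first set, which holds NO2-OA, B-like Hspa1a was 277 in NO2-OA against 1071 CPM in HFD + L-NAME 1. All 50 pairs of the nucleated classes were lower in NO2-OA there, and the share of all genes was not counted. All 10 platelet-like pairs were higher, with the counting interval above a ratio of 1 in 2. Against HFD + L-NAME 2, 8 of the 50 pairs were higher in NO2-OA.

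**Figure D3:**
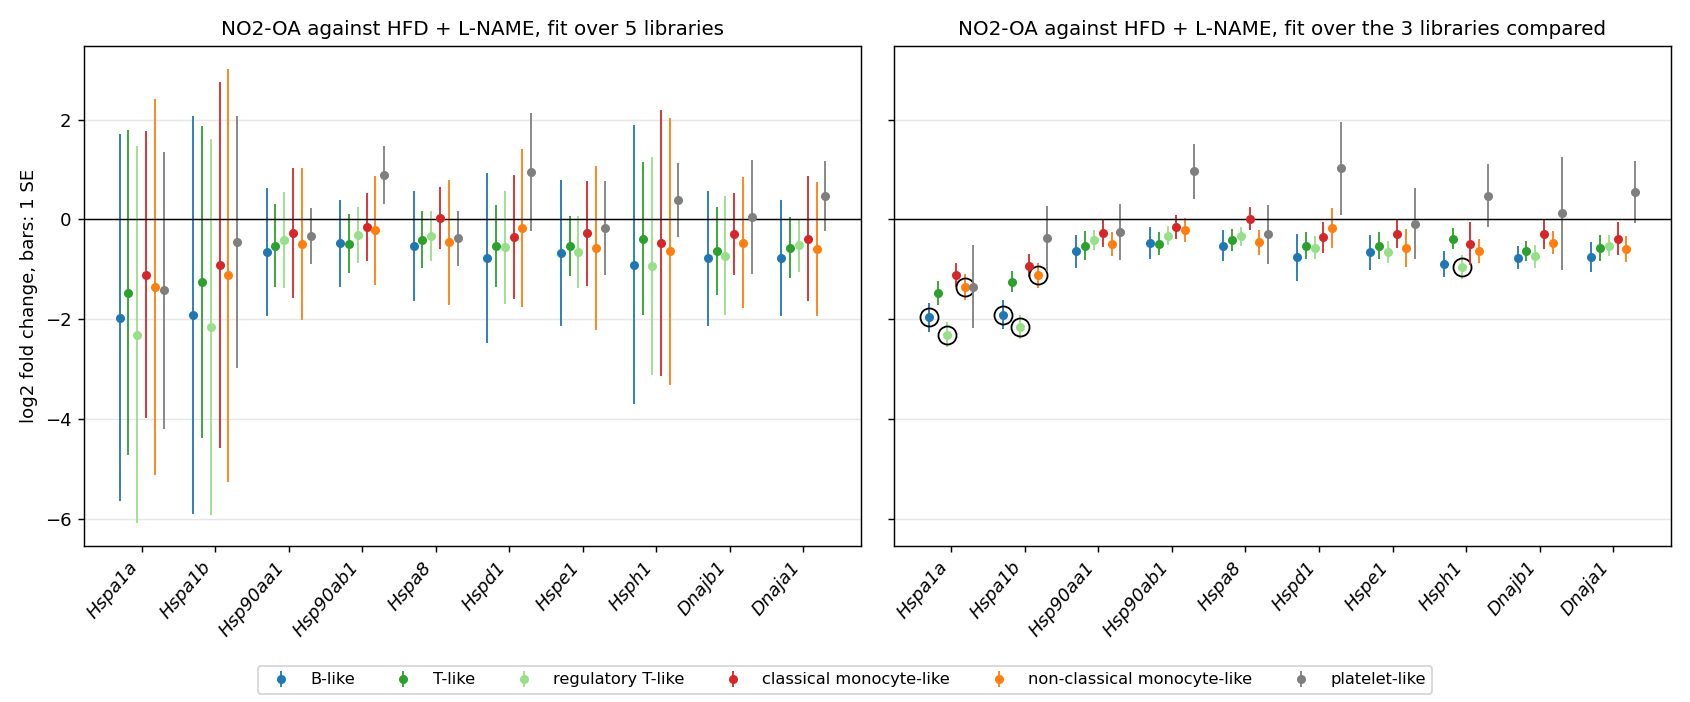
Log2 fold change of NO2-OA against HFD + L-NAME (vertical axis, bars 1 SE) for each gene and class, fitted over 5 libraries (left) and over the 3 libraries compared (right); ringed points passed an adjusted p of 0.05. The estimates are alike in both panels (54 of 60 below 0 in each), while the standard errors reach 4.14 on the left and 1.12 on the right, where 7 points are ringed.

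The other members were lower by less. In B-like cells Hsp90aa1 had 1142 CPM in NO2-OA against 2142 and 1421, and Hspd1 217 against 478 and 255, so the NO2-OA library was nearer to HFD + L-NAME 2 for both. Without the chow libraries their log2 fold changes were −0.64 ± 0.33 and −0.76 ± 0.48, and neither passed. Classical monocyte-like Hsp90aa1 had 673 in NO2-OA against 979 and 658, between the libraries on the regimen.

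The first and second file-name sets were compared with the group as a term. All 60 fold changes were above 0 (first set higher), 5 pairs passed, against 1.76% of all gene and class pairs, and 25 had an unadjusted p under 0.05, as had 8559 of the 73697 pairs of all genes. Regulatory T-like Hspd1 was higher by 1.58 ± 0.28 log2 units (adjusted p = 2.6e-05, edgeR), Hsp90aa1 by 1.44 ± 0.32 and Hspe1 by 1.19 ± 0.28. After TMM scaling, platelet-like Hspd1 was higher by 1.80 ± 0.52 and Hsp90aa1 by 0.60 ± 0.21. None of these 5 calls, the regulatory T-like ones included, was kept by every alternative. The spread in this fit rests on 1 residual degree of freedom. The TMM factors of platelet-like cells were 0.822 and 0.723 in chow 1 and HFD + L-NAME 1, against 1.235 and 1.175 in chow 2 and HFD + L-NAME 2. In CPM, platelet-like Hsp90aa1 was 186 against 125 in chow 1 and 2 but 144 against 207 in HFD + L-NAME 1 and 2. Of the 10 members, 9 were lower in HFD + L-NAME 1 than in 2 in platelet-like cells. In that class 789 of 6352 genes passed between the sets, and different clusters held most of it: of the platelet-like cells, cluster 15 had 89.8% for chow 1 and 85.1% for HFD + L-NAME 1, against 18.9% in chow 2 and 9.86% in HFD + L-NAME 2, with 33% in NO2-OA. The part of this in the platelet-like values was not tested. B-like Hsp90ab1 had 1.43 ± 0.41 with an adjusted p of 0.119 and did not pass. DESeq2 called 1 pair and edgeR without a filter on low counts 19. The chow libraries fall in different sets, so the set and the difference between the controls cannot be told apart.

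The Hspa1a level of B-like cells followed how many cells had a UMI. Chow 1, the HFD + L-NAME libraries and NO2-OA also differed in how many UMIs each such cell held. Every cell was thinned to 2000 UMIs, which left out 61 to 187 shallower B-like cells per library. A Hspa1a UMI was then found in 75.5% of B-like cells of chow 1 (exact 95% binomial interval 74.4 to 76.7) and in 1.13% of chow 2 (0.844 to 1.47). In HFD + L-NAME 1 and 2 the shares were 53.3% and 57.6%, and in NO2-OA 21.6%. B-like cells with a UMI held 7.35 on average in chow 1, then 4.50 and 4.09 in HFD + L-NAME 1 and 2 and 2.86 in NO2-OA. Between HFD + L-NAME 1 and 2 this order was the reverse of that of the shares. The mean in chow 2 is not given here. Before thinning the shares were 86.0%, 3.18%, 68.7%, 75.8% and 33.9%, at median depths of 5165, 5549, 5480, 7238 and 5200 UMIs.

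Free RNA in the droplets gives some UMIs to cells that lack a transcript, and no class here is known to lack these genes. Platelets, which have no nucleus, serve as the nearest background. In chow 1, where platelet-like cells had a median depth of 5239 UMIs, 10.8% of them had a Hspa1a UMI before thinning, against 86.0% of B-like cells. The 1.13% in chow 2 B-like cells compares with 0 of 259 platelet-like cells there (upper bound of the exact interval 1.41%) at a median depth of 859 UMIs as against 5549 in B-like cells, and nothing is read from that share.

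The monocyte classes were nearly uniform in chow 1. A Hspa1a UMI was present in 93.2% of non-classical and 95% of classical monocyte-like cells there after thinning, and in 2.21% and 10.6% in chow 2. In NO2-OA the shares were 44.2% and 52.8%, below the 78.4% and 76.2% of HFD + L-NAME 1 and the 87.7% and 81.8% of HFD + L-NAME 2. Hspa8, the constitutive member, had a UMI in 96.0% of B-like cells of chow 1 and in 46.1% in chow 2. Within B-like cells of chow 1, Dnajb1 was found in 59.9% of the 4940 cells with a Hspa1a or Hspa1b UMI and in 23.0% of the 762 without. In chow 2 those shares were 11.1% of 81 and 11.7% of 4630 cells, with overlapping intervals.

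**Figure D4:**
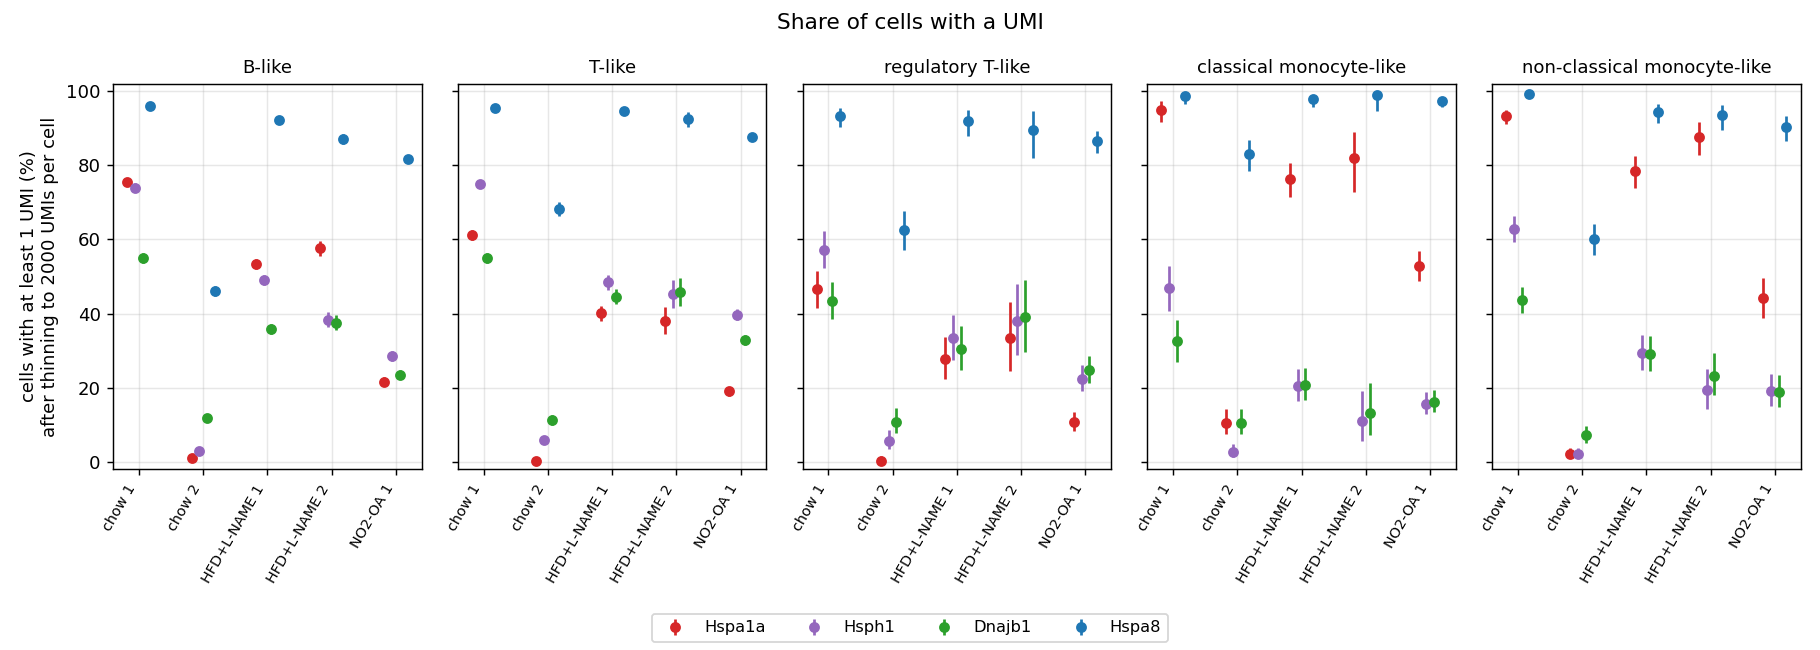
Percent of cells with at least 1 UMI (vertical axis) of Hspa1a, Hsph1, Dnajb1 and Hspa8 in each library after thinning to 2000 UMIs per cell, 1 panel per class, bars giving exact 95% binomial intervals. Hspa1a falls to 1.13% of B-like cells in chow 2 and stands at 75.5% in chow 1, with NO2-OA at 21.6% below both HFD + L-NAME libraries.

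The places of chow 1, chow 2 and NO2-OA were also read inside the clusters that make up the lymphocyte classes. Of the B-like and T-like clusters, 8 had at least 20 cells in every library. In 8 of 8, Hspa1a plus Hspa1b was highest in chow 1, lowest in chow 2, and lower in NO2-OA than in both HFD + L-NAME libraries, and the summed other 8 members were 3.36- to 8.02-fold higher in chow 1 than in chow 2. The order of the HFD + L-NAME libraries varied, with 2792 and 3475 CPM of the HSP70 pair in B-like cluster 0 and 1321 and 1056 in T-like cluster 3. The libraries filled the clusters unequally: cluster 1 held 41.9% of B-like cells in chow 1 and 1.98% in NO2-OA, cluster 0 held 20.7% and 53.6%, and T-like cluster 6 held 1.41% and 54.3%. B-like cluster 20 had Gm26802, Tcof1, Rtn2, Egr1, Tex14, Gm20513, Zbtb10, Gm57200, Hspa1a and Fosb as leading genes. It held 5.95% of B-like cells in chow 1 and 0.889% in chow 2. Its shares were 3.035% and 0.70% in HFD + L-NAME 1 and 2 and 3.87% in NO2-OA.

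Classes too small to test in every library are given by value. In NK-like cells chow 1 was the highest library for 9 of 10 members, chow 2 the lowest for 10, and NO2-OA below both HFD + L-NAME libraries for 6. NK-like Hspa1b was at 2116 CPM in chow 1, 0.953 in chow 2 (1 UMI), then 916 and 740 in HFD + L-NAME 1 and 2 and 399.5 in NO2-OA. Neutrophil-like cells had 2009 in chow 1, then 946 and 565 in HFD + L-NAME 1 and 2 and 880 in NO2-OA, while the 12 neutrophil-like cells of chow 2 gave 0 UMIs. In erythroid-like cells NO2-OA was above both HFD + L-NAME libraries for every member but Hspa1a, which lay between them. That order is the reverse of the one in B-like, T-like and regulatory T-like cells. Erythroid-like Hsp90ab1 had 624 in NO2-OA against 234 and 157, with 401 and 101.8 in chow. Cavity macrophage-like cells were present in chow 2 and HFD + L-NAME 2 alone, with 9.15 and 1863 CPM of Hspa1b.

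The wider chaperone network was read from 7 gene lists. Of 22 other cytosolic heat-shock genes and co-chaperones, 11 were at least 2-fold higher in chow 1 than in chow 2 in B-like and 11 in T-like cells, and none was 2-fold lower in either. The list's median log2 ratio was 1.00 in both classes, against 0.01 and 0.06 for all genes. In regulatory T-like cells 10 of 22 were 2-fold higher, with a median of 0.88. The counts were 4 of 22 in classical and 7 of 21 in non-classical monocyte-like cells, with medians of 0.28 and 0.47. In platelet-like cells 1 of 18 was 2-fold higher and 3 were 2-fold lower. The median there was −0.61, against −0.62 for all genes. Hspa4l, an HSP110 relative of Hsph1, had 226 and 19.9 CPM in chow B-like cells, 99.5 and 75.2 in HFD + L-NAME 1 and 2 and 58.8 in NO2-OA. Bag3, which couples HSP70 to autophagy, had 30.6 and 1.63, then 11.9 and 7.18, then 4.85. Cacybp, a co-chaperone of HSP90, had 270, 49.8, 258, 174 and 152. In B-like cells these genes had the order of the members. They were named for a small p between the file-name sets, described above, which also separate chow 1 from chow 2. Nothing further is read from that order. Dnajb4, named by the same rule, was lower in the first set in platelet-like cells, as given next.

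In tests of this list, 0 of 127 gene and class pairs passed for HFD + L-NAME against chow and 0 for NO2-OA against HFD + L-NAME. Between the sets 7 were higher and 2 lower in the first, where 1.76% of all gene and class pairs passed. Regulatory T-like Hspa4l was higher in the first set by 1.25 ± 0.25 and Bag3 by 1.33 ± 0.27. The lower ones were platelet-like Dnajb4 (−1.41 ± 0.22) and Bag3 (−1.5 ± 0.43), in the class where 789 of 6352 genes passed between the sets.

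The chaperonin TRiC, a ring that folds actin and tubulin, had a smaller gap. Its 8 subunits had a median log2 chow ratio of 0.87 in B-like and 0.37 in T-like cells, and 3 of 8 reached 2-fold in B-like cells. Cct7 had 153 and 62.3 CPM in chow B-like cells, 131 and 92.5 in HFD + L-NAME 1 and 2 and 92.9 in NO2-OA. Cct3, Cct6a and Cct7 were higher in the first set in B-like cells (1.00 ± 0.22, 0.77 ± 0.19 and 0.94 ± 0.20 log2 units). Of all genes in B-like cells, 229 of 16455 passed between the sets.

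The lists of endoplasmic reticulum and other mitochondrial chaperones, heat-shock factors and immediate-early genes had medians nearer 0 in B-like and T-like cells. In classical monocyte-like cells their medians were −0.24, 0.08, −0.13 and −0.52 in that order, and that of TRiC was 0.009. The 18 endoplasmic reticulum genes had a median log2 ratio of 0.03 in B-like cells and 0 reached 2-fold. Hspa5, the HSP70 of that compartment, had 711 and 410 CPM in the controls, 626 and 492 in HFD + L-NAME 1 and 2 and 649 in NO2-OA. The 8 other mitochondrial chaperones and proteases had a median of −0.27, with Hspa9, the HSP70 of mitochondria, at 164 and 108. Of the heat-shock factors and regulators, Hsf1 had 53.2, 45.4, 52.6, 44.8 and 50.6 in the 5 libraries. Immediate-early genes, which rise within minutes of many stimuli, had a median of −0.12 in B-like cells, with Jun at 1001 and 1023 in chow.

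No gene of these lists passed for HFD + L-NAME against chow or for NO2-OA against HFD + L-NAME in edgeR. Between the file-name sets, platelet-like Hsbp1, which binds heat-shock factors, was higher in the first set by 0.91 ± 0.19 log2 units and Atf4, a transcription factor of the integrated stress response, by 0.59 ± 0.20, while its target Ddit3 was lower (−0.97 ± 0.30). The immediate-early genes Junb (−1.20 ± 0.25), Dusp1 (−1.25 ± 0.34), Zfp36 and Fos were lower there as well, and Atf3 was lower in regulatory T-like cells (−1.05 ± 0.26). Of all genes, 789 of 6352 passed between the sets in platelet-like and 114 of 11422 in regulatory T-like cells.

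The cold-inducible RNA-binding proteins ran the other way between the 2 controls. Cirbp had 93.1 CPM in chow 1 and 254 in chow 2 in B-like cells, then 131 and 97.2 in HFD + L-NAME 1 and 2 and 125 in NO2-OA. Rbm3 had 385 and 693, then 401 and 305, then 359. Chow 2 was the highest library for both. It was at least 2-fold over chow 1 in 8 of 12 gene and class pairs of this list, against 4476 of all 73678 pairs. Platelet-like cells held 2 of the 8, and there 2191 of 6352 genes were at least 2-fold higher in chow 2. None of the 12 passed in any of the 3 tests.

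**Figure D5:**
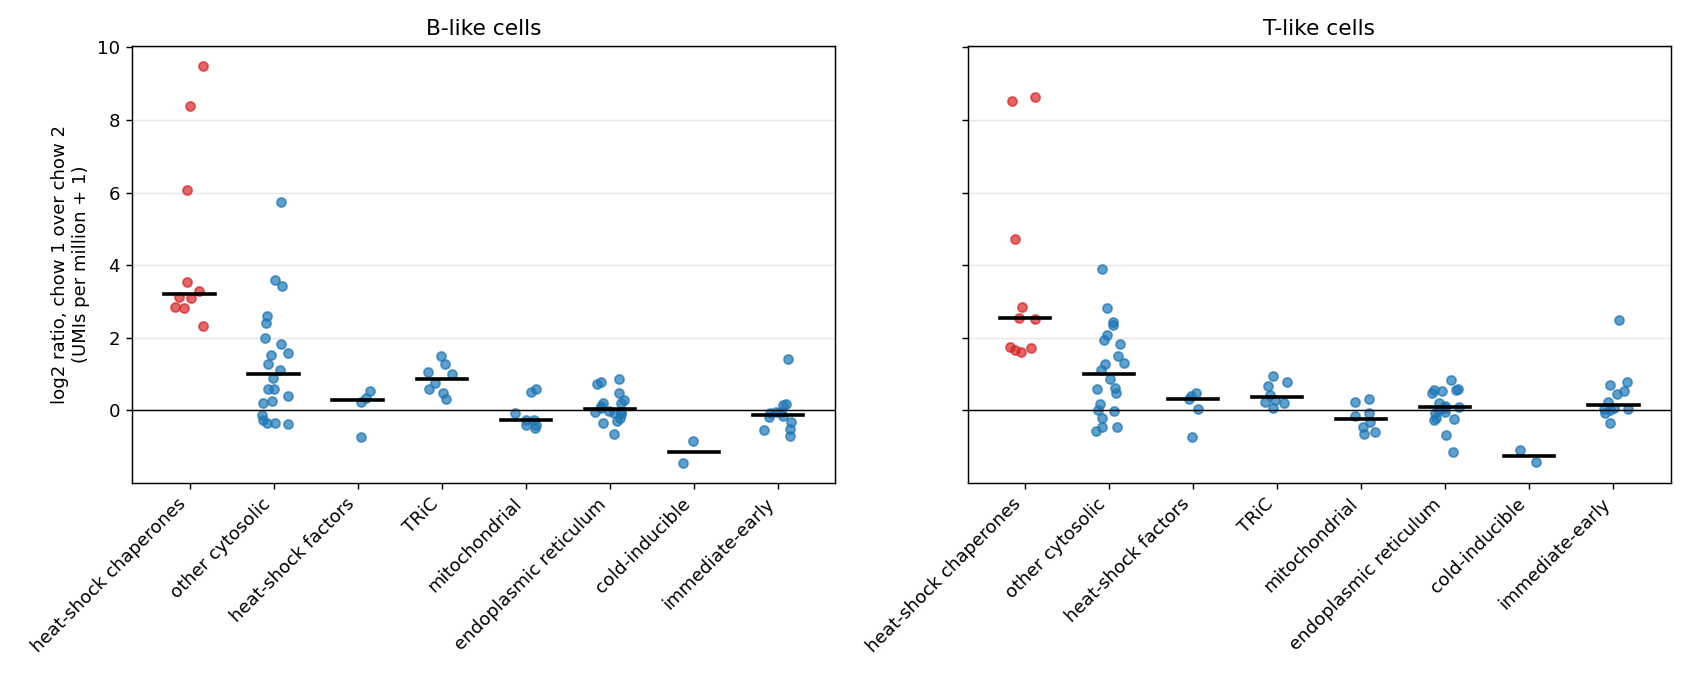
Log2 ratio of chow 1 to chow 2 (CPM plus 1, vertical axis) for the 10 heat-shock chaperones (red) and the genes of each list (blue), 1 point per gene and a bar at the median, in B-like and T-like cells. The chaperones lie above every list's median, the other cytosolic genes at a median of 1.00, and the pair of cold-inducible genes below 0.

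Genes that resembled the inducible members most were found over 30 class and library points by the correlation with the mean of Hspa1a, Hspa1b, Hsph1 and Dnajb1, each centred within its class. Of 6081 genes, the 8 outside the members with the highest Pearson r were Cacybp (0.94), Ahsa2 (0.87), Chchd2 (0.86), Slc15a2 (0.84), Cybc1 (0.82), Hspa4l (0.82), Rtn3 (0.81) and Stip1 (0.81). The points share 5 libraries and their depth, so r is a description. Chchd2, a mitochondrial protein, had 813 and 253 CPM in chow B-like cells, 738 and 474 in HFD + L-NAME 1 and 2 and 457 in NO2-OA. Slc15a2, a peptide transporter, had 166, 26.4, 79.9, 152 and 182, so its NO2-OA level was above both HFD + L-NAME libraries, unlike the members. Cirbp had the lowest r of the 6081 genes, −0.87.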

How the data were processed

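The deposited values are UMI counts per gene and barcode, which the authors made with Cell Ranger 7.1.0, per the file headers; per the submitters' processing notes, bcl2fastq and the mouse genome mm39 were used, and the annotation release is not given in the sources used here. Barcodes with at least 200 genes and a mitochondrial share below 10% were kept, and predicted doublets (scanpy 1.11.5, 0.8% per 1000 barcodes) were left out. Leiden clusters (leidenalg 0.10.2, resolution 1, 2000 variable genes without the members and listed genes, 40 components, 20 neighbours) were named from marker lists, with thresholds set after the data were seen. Counts were summed per class and library, scaled to CPM (UMIs per 1000000), and tested by the quasi-likelihood method of edgeR 4.0.16 (R 4.3.3) after its filterByExpr and TMM steps, with robust moderation and p-values Benjamini-Hochberg adjusted over all genes of a class, threshold 0.05. The members and lists were chosen with earlier results of these data known. All 10 members passed the filter on low counts in the 6 tested classes. From each list, up to 4 genes past the threshold with the smallest p were named, or else up to 4 with the highest mean; Hsf1, Hspa5, Jun, Zfp36, Fos, the clusters and Cirbp's lowest r were chosen after their values were seen. Alternatives were DESeq2 1.42.0, its size factors, no filter, a mitochondrial share below 5%, doublets kept, clusters with the members among the variable genes, thinned counts, each library left out, a block for the replicate number and fits of fewer libraries. The script was tested on simulated data.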

Additional observations from a re-analysis of the deposited data

Results flagged for a closer look

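All 60 gene and class pairs of the tested classes were lower in HFD + L-NAME than in chow within the first file-name set and higher within the second, so every member had opposite directions in the sets. This difference between the sets was not tested, since each set has 1 chow and 1 HFD + L-NAME library. The share of all gene and class pairs with these directions was not counted.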

How the results depend on the processing

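Of 413 alternative values for 33 log2 fold changes of named genes, 358 kept their direction and side of the threshold, 20 reversed, 12 lost and 23 gained a call; the cause was not tested. For HFD + L-NAME against chow, 3 gene and class pairs were called, and 44 with DESeq2, 216 with no filter on low counts, 127 with the replicate block and 3 to 342 with 1 library left out; calls among the members, 0, ran from 0 to 36 with 1 library left out. For NO2-OA against HFD + L-NAME, 11 pairs were called, and 124 with DESeq2, 281 with no filter, 157 over the libraries compared, 6 with predicted doublets kept, 406 with the block and 36 to 187 with 1 library left out. Calls among the members, 0, became 7 over the libraries compared, 1 with the block, and 0 to 7 with 1 library left out. For the file-name sets, 1298 pairs were called, and 368 with DESeq2, 374 below a mitochondrial share of 5%, 2023 with no filter, 790 with doublets kept and 624 with thinned counts. Calls among the members, 5, became 1 with DESeq2, 13 with its size factors, 2 with the members among the variable genes, 19 with no filter, 8 with doublets kept and 15 with thinned counts.

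In B-like cells, HFD + L-NAME against chow, the log2 fold change with the replicate block was 2.96 for Hspa1a, 3.45 for Hspa1b, 0.61 for Hsp90aa1, 0.74 for Hspd1, 1.55 for Hsph1 and 0.59 for Dnajb1. With 1 library left out it ran from −1.23 to 7.32 for Hspa1a, −1.31 to 8.47 for Hspa1b, −0.89 to 2.20 for Hsp90aa1, −0.35 to 1.94 for Hsp90ab1, −0.64 to 2.15 for Hspa8, −0.92 to 2.59 for Hspd1, −0.64 to 2.62 for Hspe1, −1.45 to 4.68 for Hsph1, −0.94 to 2.14 for Dnajb1 and −0.46 to 2.35 for Dnaja1. The labels do not pair the libraries, and with 2 pairs the deviations of same-numbered libraries correlated at 0.0804 to 0.361 over the 6 classes. Without thinning, a Hspa1a UMI was in 86.0%, 3.18%, 68.7%, 75.75% and 33.9% of B-like cells of chow 1, chow 2, HFD + L-NAME 1, HFD + L-NAME 2 and NO2-OA. Depth limits platelet-like cells of chow 2, where 456629 UMIs held 0 of Hspa1a.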
